A study of Homo sapiens with 6 samples.

Results

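Solute carriers are membrane proteins that move amino acids, ions, metals, nucleosides and other small molecules across the cell surface and the membranes of organelles. Their family name is SLC, the number after it gives the family and so, broadly, the cargo, and most work as exchangers or cotransporters driven by ion gradients rather than by ATP. In the liver, stellate cells are the source of scar matrix, and carriers for amino acids supply the cystine, glutamine and proline that glutathione and collagen are made from.

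The cells were LX-2, an established human hepatic stellate cell line with a wild-type genotype per the labels. For 24 h they were exposed to FEBJ (fruit extract of Brucea javanica, a mixture of compounds), to cynaroside, which is luteolin carrying a glucose, or to the DMSO control. Each of the 3 groups held 2 libraries of total RNA. The labels give no doses and do not name separate cultures for the libraries of a group. The p-values thus rest only on the spread between these libraries, which may be technical. In the test of the carriers this spread was pooled over all tested genes, so a gene's own libraries had almost no weight in it.

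Among 390 protein-coding genes with an SLC symbol, 340 remained after the mitochondrial SLC25 family, SLC7A5 and SLC1A5 were set aside. Each was read from non-coding rows of the count tables whose exons lie, by at least 50 bp, across from exons of that gene alone on the other strand. This applied to 56 carriers, 41 of them with at least 1 such count, and the 17 with at least 100 such counts over the 6 libraries are described here. They are 17 of 2379 genes that could be read this way. Members were thus chosen by their summed count, which is given as a description only: SLC30A4 with 116 counts and SLC24A1 with 183 lay just inside the limit, and SLC45A4 with 89 and SLC9A3 with 64 just outside. The highest totals were 20195 for SLC4A2, 5674 for SLC38A10 and 5052 for SLC30A5.

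Gene rows held 1599000 to 4709317 counts per library, and the rows read here held 727529 to 2127731, with the shallowest and the deepest library both in the cynaroside group. The 17 carriers held 4104 to 12372 counts per library, 0.471 to 0.581% of the rows read. Log levels of all tested genes correlated at 0.978 to 0.981 within groups and at 0.828 to 0.956 between groups. Cell type markers were summed from their own rows, a different reading from that of the carriers. There, VIM and COL1A1 held 3279 and 2211 counts over all libraries, and COL1A2, DES and LRAT were at 0. In the opposite rows, VIM held 732412 counts, THY1 6041, ACTA2 2909, KRT7 2852, SPARC 2654 and DES 13. In the own rows, sums over the 12 stellate markers were 2260 and 3247 counts for DMSO, 361 and 529 for FEBJ, 315 and 669 for cynaroside. LOX, 1 of the 12, went the other way after FEBJ, with 93 and 108 counts for DMSO against 215 and 353. Hepatocyte markers summed to 2 and 1 counts for DMSO, 30 and 37 for FEBJ and 0 in both cynaroside libraries, nearly all from SERPINA1, with ALB and TTR at 0. Macrophage markers summed to 5 and 8, 25 and 35, and 10 and 15 counts, with CD163 and PTPRC at 0. Bile duct markers summed to at most 15 counts in a library, all from KRT7's own row, and endothelial markers were at 0 in both readings. A gene without a row to read from the other strand also counts as 0 there, and COL1A1 was at 0 in that reading. A 0 therefore does not show that a cell type was absent. The part of cell make-up in the carriers' differences was not tested, and in bulk RNA fewer cells of a type and less RNA per cell cannot be told apart.

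What was counted can be seen in the sequence itself. The stretches below come from the GENCODE transcripts of release 29 on GRCh38, in the reading direction of the carrier and in lower case because nothing in them is marked out. They show coding sequence of 5 carriers over which the non-coding row on the other strand was counted, the first 60 bases of the shared block in each.
SLC4A2, chr7:151075255-151075314, plus strand: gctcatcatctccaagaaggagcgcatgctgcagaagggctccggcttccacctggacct
SLC38A10, chr17:81251553-81251612, minus strand: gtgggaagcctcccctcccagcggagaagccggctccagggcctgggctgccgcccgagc
SLC30A5, chr5:69115237-69115296, plus strand: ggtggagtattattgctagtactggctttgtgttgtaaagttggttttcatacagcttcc
SLC6A17, chr1:110166930-110166989, plus strand: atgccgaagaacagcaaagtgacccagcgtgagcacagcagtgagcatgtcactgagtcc
SLCO4A1, chr20:62666385-62666444, plus strand: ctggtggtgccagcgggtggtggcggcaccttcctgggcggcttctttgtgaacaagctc

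For SLC4A2 the row ENSG00000244151 carries the reverse complement of the stretch above, on the minus strand.
ENSG00000244151: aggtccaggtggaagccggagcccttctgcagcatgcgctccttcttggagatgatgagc
A read from either strand of this stretch has the same letters up to orientation. The strand setting of the counting step is not given in the sources used here, so transcripts of the carrier and of the non-coding gene cannot be told apart in these rows by that setting. Of all counts, 87.4 to 88.3% per library matched no gene row. VIM held 3279 counts in its own row against 732412 in the opposite rows. Which strand the counted reads came from was not tested.

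How far a row stands for its carrier differed between members. All or nearly all of the row's exons lay opposite the carrier for SLC24A1, SLC35E1, SLC38A10 and SLCO3A1 (99.8 to 100% of the row). The share was 81.1% for SLC46A1, 58.0% for SLC4A2 and 56.2% for SLC30A5. It was 49.0% for SLC6A17 and 31.3% for SLC7A6, and it lay between 3.45 and 24.1% for SLC30A4, SLC24A3, SLC29A2, SLC7A11, SLC35G2, SLCO4A1 and SLC8A1. The rows of SLC29A2 and SLC35G2 are named for neighbouring genes that start nearby in the other direction, B4GAT1-DT and NCK1-DT. The 8 carriers with rows at least 50% opposite to them are therefore given as a count of their own beside the whole set.

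**Figure D1:**
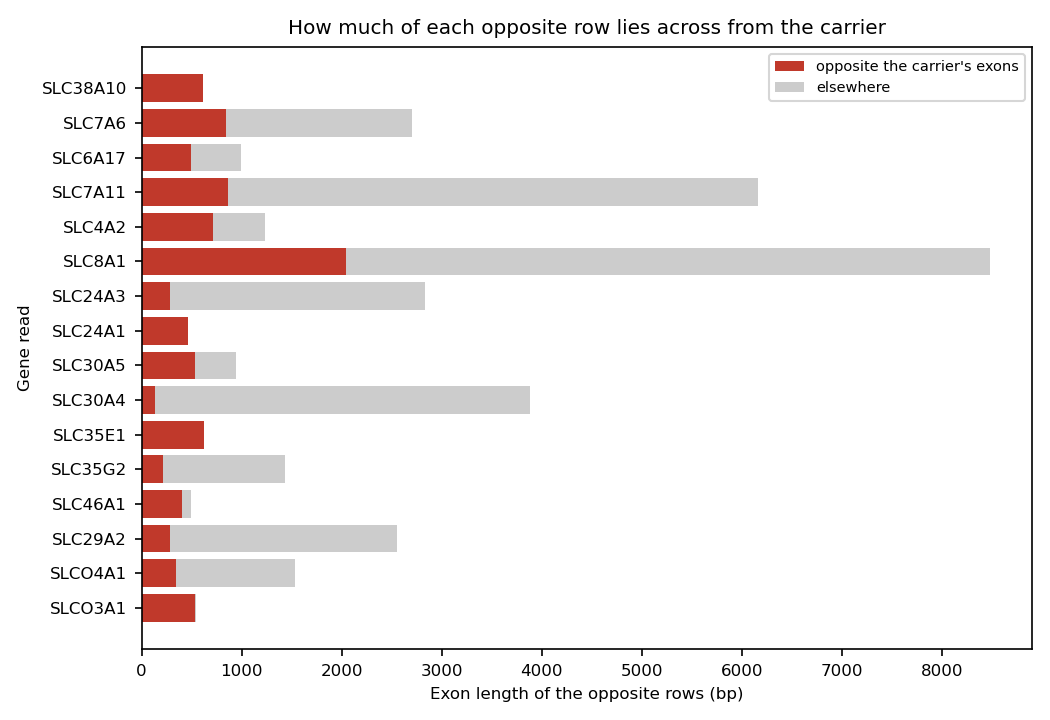
Exon length in bp of the non-coding rows from which each of 16 carriers was read, split into the part opposite the carrier's exons (red) and the part elsewhere (grey). The SLC8A1 and SLC7A11 rows are the longest, with 24.1 and 14.0% of their length opposite the carrier.

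Levels are in CPM, the share of a library's counts in the rows read, after TMM scaling, which assumes that most genes keep their level. Per kb of row exon, DMSO levels ran from 1849.6 for SLC4A2, 1391 for SLC38A10, 719 for SLC30A5 and 633 for SLC35E1 down to 3.13 for SLC30A4. SLC6A17 was at 153 and SLCO3A1 at 106. The higher library of a pair exceeded the lower by a median of 1.11 times in DMSO, 1.28 times after FEBJ and 1.13 times after cynaroside, and by at most 6.06 times, for SLC24A3 after FEBJ. The summed level of the 17 carriers was 5113 and 5206 CPM in DMSO, 4294 and 4325 CPM after FEBJ and 5847 and 5983 CPM after cynaroside. SLC4A2 alone made up a large part of these sums, and without it they were 2932 and 2838, 1705 and 1804, and 3240.0 and 3196 CPM. After TMM scaling, the FEBJ libraries thus had the lowest sums and the cynaroside libraries the highest, with and without SLC4A2. Before scaling, the 17 carriers held 0.471 and 0.480% of the rows read in DMSO and 0.481 and 0.482% after FEBJ. After cynaroside they held 0.564 and 0.581%. The lowest place of FEBJ in the whole sum therefore depends on the scaling.

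**Figure D2:**
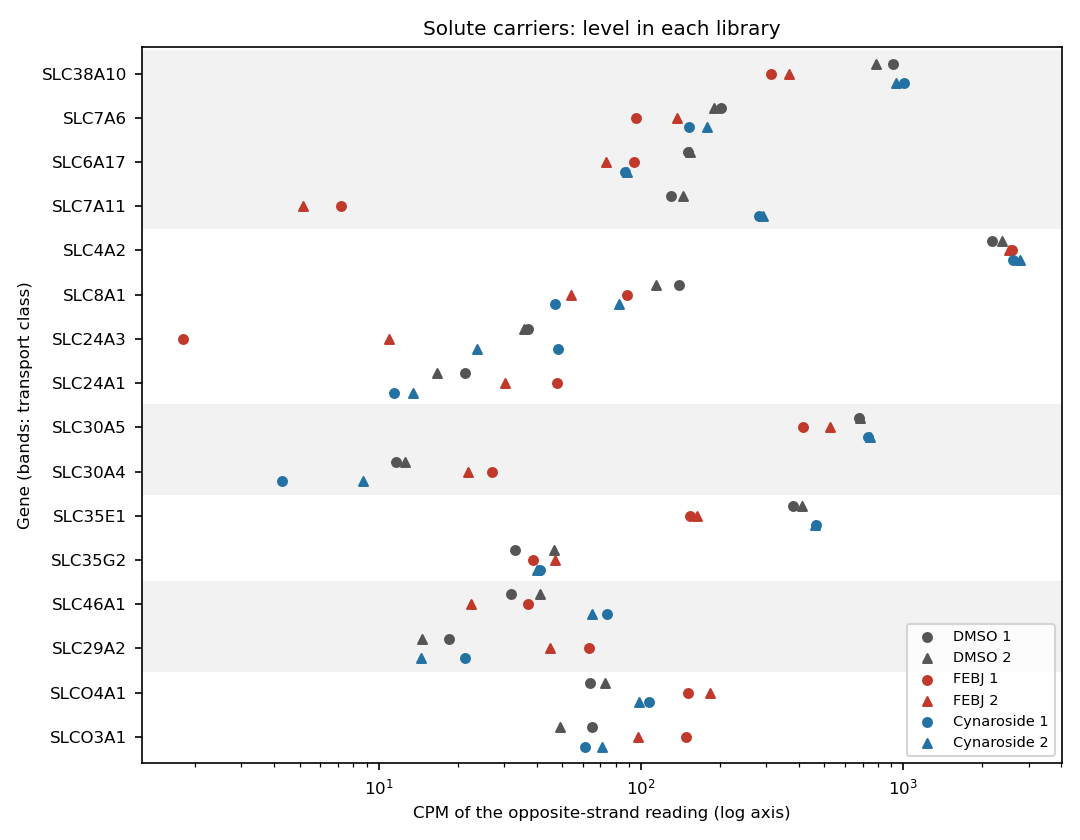
Level of 16 carriers in each of the 6 libraries, in CPM of the opposite-strand reading on a log axis; circles are replicate 1, triangles replicate 2, and bands mark the transport classes. SLC7A11 spans the widest range, from 5.14 CPM after FEBJ to 293 CPM after cynaroside.

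After FEBJ, compared with DMSO, 9 of the 17 carriers fell and 4 rose at an adjusted p of 0.05 or less (edgeR quasi-likelihood F-test, Benjamini-Hochberg adjustment over 1761 tested genes). All 4 amino acid carriers were among those that fell, led by the cystine carrier SLC7A11, and both organic anion carriers were among those that rose. Of these carriers, only SLC38A10 and SLCO3A1 have rows at least 50% opposite the gene. In the own rows after FEBJ, SLC7A6 was higher, and SLC7A11 and SLC38A10 were not called. Own rows of SLC6A17, SLCO3A1 and SLCO4A1 were not tested. SLC29A2, also among those that rose, passed the count limit only through its FEBJ libraries, so its rise is partly fixed by that limit. Of all tested genes, 66.8% passed the same threshold, 33.7% higher and 33.1% lower, so most genes moved and a call alone sets no carrier apart. The median log2 fold change was -0.53 over the 17 carriers and 0.01 over all genes. Of the 8 carriers whose row lay at least 50% opposite to them, 4 fell and 2 rose.

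After cynaroside, compared with DMSO, 4 carriers rose, 2 fell and 11 did not pass the threshold, against 18.2% of all tested genes higher and 20.2% lower (38.4% in all). SLC7A11, SLC4A2, SLC46A1 and SLCO4A1 rose, and SLC6A17 and SLC8A1 fell. The median log2 fold change was 0.12 over the carriers and -0.02 over all genes. With the scaling of all deposited gene rows in place of that of the rows read, 9 carriers rose and 0 fell, and the median of all genes moved to 0.44. That scaling moved the median of all genes to 0.29 for FEBJ against DMSO and to -0.16 for FEBJ against cynaroside. Folds are therefore given relative to the rows read.

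Set against each other, FEBJ left 8 carriers lower and 5 higher than cynaroside did, against 32.9 and 33.7% of all tested genes (66.6% in all). Among the higher ones, SLC24A1, SLC29A2 and SLC30A4 passed the count limit only through their FEBJ libraries, so their direction is partly fixed by it. The 3 comparisons share libraries, so their calls are not independent of each other. SLC6A17, SLC8A1, SLC35G2 and SLC4A2 were not called between the treatments.

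**Figure D3:**
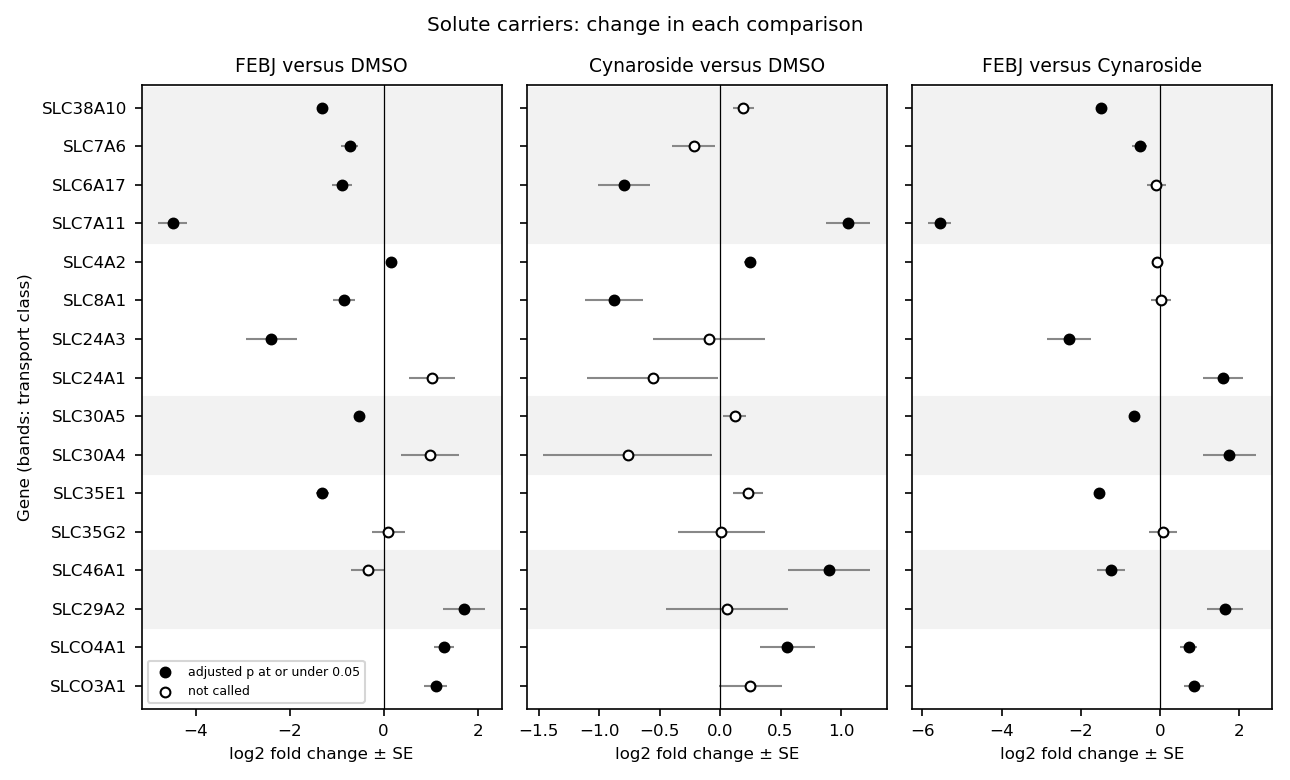
Log2 fold change of 16 carriers with its standard error in the 3 comparisons; filled points have an adjusted p at or under 0.05. After FEBJ, 8 filled points lie left of 0 and 4 right of it; after cynaroside, 2 lie left and 4 right.

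**Figure D4:**
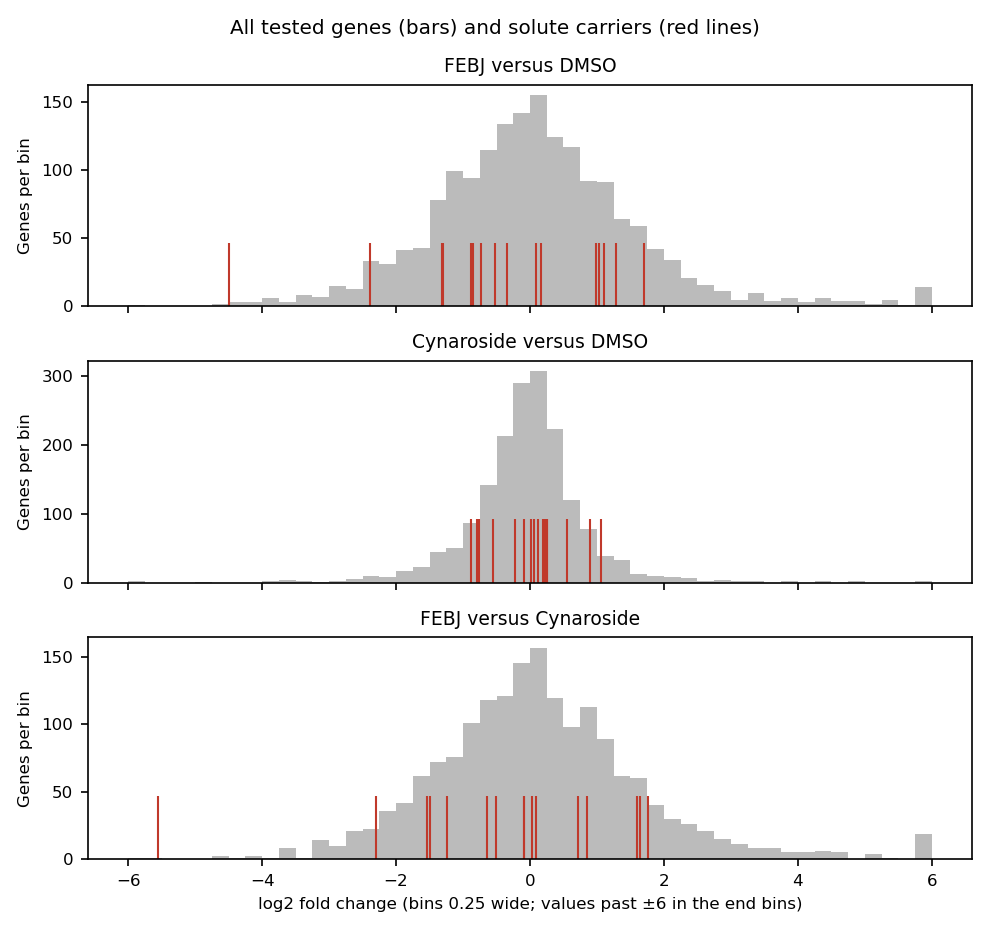
Number of tested genes per bin of log2 fold change (grey bars, 1761 genes) with 16 carriers as red lines, in the 3 comparisons. The carriers spread over the range of all genes, and SLC7A11 lies far to the left in both comparisons with FEBJ.

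Amino acid carriers come first. SLC7A11 is the light chain of the cystine and glutamate exchanger, which brings in the cystine used for glutathione. Its row, SLC7A11-AS1, held 130 and 144 CPM in DMSO, 7.21 and 5.14 CPM after FEBJ, and 281 and 293 CPM after cynaroside. The 3 groups did not overlap, with FEBJ lowest and cynaroside highest. It fell after FEBJ by 4.50 ± 0.31 (SE) on the log2 scale, which was 22.6-fold (adjusted p = 9.65e-46), and rose after cynaroside by 1.06 ± 0.18 (adjusted p = 7.83e-08). Between the treatments the difference was -5.56 ± 0.29. The row is 6161 bp long, and 14.0% of it lies opposite the carrier, none of that in coding sequence. The own row of SLC7A11 as deposited held 32 and 47 counts in DMSO, 44 and 37 after FEBJ, then 10 and 16 after cynaroside. It was not called after FEBJ (0.29 ± 0.49, adjusted p = 0.645) or cynaroside (-1.15 ± 0.55, adjusted p = 0.0886), and was higher after FEBJ than after cynaroside (1.43 ± 0.55, adjusted p = 0.0364). These p-values are from the edgeR quasi-likelihood F-test with Benjamini-Hochberg adjustment. The 2 readings of SLC7A11 thus went opposite ways between the treatments.

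SLC38A10 belongs to the family that carries glutamine and other neutral amino acids. It was read from ENSG00000276101, all of whose 610 bp lie opposite the gene, 64.8% of them in coding sequence. The level was 912 and 785 CPM in DMSO, 313 and 367 CPM after FEBJ, and 1004 and 935 CPM after cynaroside. Both FEBJ libraries lay far below the other 4. The fall after FEBJ was -1.31 ± 0.09 on the log2 scale (adjusted p = 1.42e-43), and cynaroside gave 0.19 ± 0.09 (adjusted p = 0.0625), in the edgeR test with Benjamini-Hochberg adjustment. The cynaroside value passed the threshold under 11 alternatives at 0.19 to 0.66, among them RLE scaling (adjusted p = 0.0391) and leaving out DMSO 1 (0.0201), FEBJ 1 (0.0365) or FEBJ 2 (0.0357). SLC38A10's own row, with 78 to 391 counts per library, was higher after cynaroside than in DMSO (1.28 ± 0.24) and lower after FEBJ than after cynaroside (-1.69 ± 0.25), while FEBJ against DMSO was not called (-0.41 ± 0.25).

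SLC7A6 exchanges cationic for neutral amino acids together with a heavy chain. Its row gave 202 and 189 CPM in DMSO, 95.5 and 137 CPM after FEBJ, and 152 and 178 CPM after cynaroside. The fall after FEBJ was -0.73 ± 0.18 (adjusted p = 0.000140, edgeR test with Benjamini-Hochberg adjustment), and cynaroside gave -0.22 ± 0.18, with a 95% interval of -0.56 to 0.13. SLC7A6's own row held 532 and 976 counts in DMSO and 3057 and 4618 after FEBJ, a rise of 2.56 ± 0.09 on the log2 scale. That own row lies opposite exons of SLC7A6OS, a neighbouring gene on the other strand, so reads of that gene and of SLC7A6 cannot be told apart in it.

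SLC6A17 is a carrier of neutral amino acids known from synaptic vesicles of neurons. It was read from SLC6A17-AS1, with 151 and 154 CPM in DMSO, 93.7 and 73.2 CPM after FEBJ, and 86.9 and 88.5 CPM after cynaroside. Both treatments lay below DMSO, at -0.88 ± 0.22 after FEBJ (adjusted p = 0.000106) and -0.80 ± 0.22 after cynaroside (adjusted p = 0.00120), in the edgeR test with Benjamini-Hochberg adjustment. The treatments overlapped each other, with a difference of -0.09 ± 0.23 and a 95% interval of -0.53 to 0.36. The fall after cynaroside was -0.33 with an adjusted p = 0.217 under the scaling of all deposited gene rows.

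Carriers of inorganic ions set cell pH, volume and calcium. Of 5 read, 3 fell and 1 rose after FEBJ, where 66.8% of all tested genes were called, so the count does not set the class apart. SLC4A2, the chloride and bicarbonate exchanger found in most cells, was the most abundant member, with 2182 and 2368 CPM in DMSO, 2589 and 2521 CPM after FEBJ, and 2607 and 2787 CPM after cynaroside. Both treatments lay slightly above DMSO, by 0.16 ± 0.05 after FEBJ (adjusted p = 0.00166) and 0.25 ± 0.05 after cynaroside (adjusted p = 4.85e-06), in the edgeR test with Benjamini-Hochberg adjustment. The call after FEBJ ended without DMSO 1 (0.06, adjusted p = 0.397), without FEBJ 1 (0.11, 0.106) and with no filter on low counts (0.10, 0.0930). The own row of SLC4A2, which also lies opposite exons of CDK5, held 100 and 149 counts in DMSO, 99 and 170 after FEBJ, then 27 and 94 after cynaroside. That own row was lower after cynaroside (-0.72 ± 0.28, adjusted p = 0.0335), the other way from the opposite row.

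SLC8A1, SLC24A3 and SLC24A1 exchange sodium for calcium, the last 2 with potassium as well. SLC8A1 held 140 and 114 CPM in DMSO, 88.3 and 54.0 CPM after FEBJ, and 47.0 and 82.2 CPM after cynaroside, so that both treatments lay below DMSO and overlapped each other. It fell after FEBJ (-0.85 ± 0.24, adjusted p = 0.000699) and after cynaroside (-0.88 ± 0.24, adjusted p = 0.00108), in the edgeR test with Benjamini-Hochberg adjustment. The call after FEBJ ended without FEBJ 2 (-0.55, adjusted p = 0.0869), and that after cynaroside without cynaroside 1 (-0.59, 0.0705) or with the scaling of all deposited gene rows (-0.40, 0.172).

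SLC24A3 was read from 2 rows that together gave 36.9 and 35.9 CPM in DMSO, 1.80 and 10.9 CPM after FEBJ, and 48.4 and 23.7 CPM after cynaroside. The FEBJ libraries were lowest and stood 6.06-fold apart. The fall was -2.39 ± 0.54 on the log2 scale (adjusted p = 2.34e-05, edgeR test with Benjamini-Hochberg adjustment). It was -1.77 without FEBJ 1 and -4.30 without FEBJ 2, still past the threshold in both. In the row ENSG00000232675 the FEBJ libraries (1 and 8 counts) lay far below the DMSO libraries (32 and 37), while in ENSG00000235996 they were below DMSO by a narrow margin (0.90 and 5.78 CPM against 5.83 and 11.3 CPM). SLC24A1, known from rod photoreceptors, gave 21.4 and 16.6 CPM in DMSO, 47.8 and 30.2 CPM after FEBJ, and 11.4 and 13.5 CPM after cynaroside. It was not called after FEBJ at 1.03 ± 0.49 (adjusted p = 0.0516). Its call there passed the threshold with RLE (0.0464) and upper-quartile scaling (0.0450), the scaling of all deposited gene rows (0.0148) and only the 4 libraries compared (0.0326), and without cynaroside 1 (0.0442) or cynaroside 2 (0.0414). Between the treatments SLC24A1 was higher after FEBJ (1.59 ± 0.51, adjusted p = 0.00351 in the edgeR test), a call that ended without FEBJ 1 (1.19). SLC24A1 is among the members on a total of 183 counts, with 53 and 47 of them in the FEBJ libraries. Its higher level after FEBJ is thus partly fixed by the count limit, and its tests with FEBJ are no independent support. The own row of SLC24A1, opposite exons of DENND4A, moved the same way, at 1.07 ± 0.30 against DMSO and 1.20 ± 0.31 against cynaroside.

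Zinc carriers of the SLC30 family move zinc out of the cytosol, into the secretory pathway or vesicles. SLC30A5, which loads zinc into the early secretory pathway, gave 675 and 685 CPM in DMSO, 414 and 524 CPM after FEBJ, and 734 and 744 CPM after cynaroside. FEBJ was lowest, at -0.53 ± 0.09 against DMSO (adjusted p = 7.06e-08), while cynaroside gave 0.12 ± 0.09 with a 95% interval of -0.06 to 0.30 (adjusted p = 0.322), in the edgeR test with Benjamini-Hochberg adjustment. With the scaling of all deposited gene rows the cynaroside value was called at 0.59 (adjusted p = 3.55e-07). SLC30A5's own row, with 27 and 46 counts in DMSO and 85 and 81 after FEBJ, was higher after FEBJ (1.43 ± 0.38), the other way from the opposite row.

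SLC30A4, a zinc carrier of vesicles, lay at the limit of detection used here. Its row held 12 and 19 counts in DMSO, 30 and 34 after FEBJ, then 3 and 18 after cynaroside, and 3.45% of the row lies opposite the gene. Another protein-coding gene lies along the row on the same strand. SLC30A4 is among the members on a total of 116 counts, with 30 and 34 of them in the FEBJ libraries, so its higher level after FEBJ is partly fixed by the count limit and its test against cynaroside is no independent support. SLC30A4 was not called against DMSO after FEBJ (0.99 ± 0.62, adjusted p = 0.150) or cynaroside (-0.76 ± 0.70, adjusted p = 0.409), in the edgeR test with Benjamini-Hochberg adjustment. It was higher after FEBJ than after cynaroside (1.76 ± 0.66, adjusted p = 0.0133), which ended without FEBJ 1 (1.56, 0.116), FEBJ 2 (1.86, 0.0563) or cynaroside 1 (1.40, 0.0925), and was 2.44 without cynaroside 2. With a pseudogene row added, the difference was -0.53 (adjusted p = 0.0379), so its direction rests on which rows are read.

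SLC35E1 and SLC35G2 belong to the family of nucleotide sugar carriers of the endoplasmic reticulum and Golgi. SLC35E1 gave 378 and 409 CPM in DMSO, 154 and 164 CPM after FEBJ, and 464 and 460 CPM after cynaroside. FEBJ was lowest by a wide margin, with a fall of -1.31 ± 0.14 on the log2 scale (adjusted p = 4.68e-21), and cynaroside gave 0.23 ± 0.12 (adjusted p = 0.138), in the edgeR test with Benjamini-Hochberg adjustment. The cynaroside value passed the threshold with upper-quartile scaling (0.31, adjusted p = 0.0360) and with the scaling of all deposited gene rows (0.69, 1.20e-06). Nearly all counts came from 1 of its 2 rows, ENSG00000268309, with 2695 of 2707. The own row of SLC35E1 held 30 and 32 counts in DMSO, 0 and 2 after FEBJ, then 2 and 13 after cynaroside. SLC35E1 was thus low after FEBJ in both readings. Its own row passed the filter on low counts only through the DMSO libraries. The fall in that reading is thus partly fixed by the filter and is no independent support. SLC35G2 was not called in any comparison, with 33.0 and 46.6 CPM in DMSO, 38.8 and 46.9 CPM after FEBJ, and 41.3 and 40.1 CPM after cynaroside. The 95% interval of its log2 fold change was -0.60 to 0.79 after FEBJ and -0.69 to 0.72 after cynaroside, which leaves room for a sizeable difference either way.

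SLC38A10 and SLC35E1 had the same log2 fold change after FEBJ to 2 decimals, and their rows lie wholly opposite the gene, so their promoters are shown, a choice made after their values were seen. Each line gives the 250 bases before the start, from RefSeq on GRCh38.p14, with GGGCGG or its reverse complement, the GC box, in capitals.
SLC38A10, chr17:81295308-81295557, minus strand: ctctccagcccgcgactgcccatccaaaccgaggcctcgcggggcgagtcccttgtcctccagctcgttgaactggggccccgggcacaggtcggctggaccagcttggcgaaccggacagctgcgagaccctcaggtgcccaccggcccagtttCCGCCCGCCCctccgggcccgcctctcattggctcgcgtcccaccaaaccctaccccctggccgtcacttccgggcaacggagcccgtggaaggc
SLC35E1, chr19:16572416-16572665, minus strand: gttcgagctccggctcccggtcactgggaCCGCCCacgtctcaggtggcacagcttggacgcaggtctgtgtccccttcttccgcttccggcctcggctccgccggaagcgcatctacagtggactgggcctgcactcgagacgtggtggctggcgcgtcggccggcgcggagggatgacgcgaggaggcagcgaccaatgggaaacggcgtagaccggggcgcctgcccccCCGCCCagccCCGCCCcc

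SLC38A10 has 2 GC boxes, which overlap each other, and SLC35E1 has 3. Of 35116 promoters in the table, 42.6% held at least 1, as did 14 of 20 promoters of the 12 carriers that matched. Neither promoter held the E-box CACGTG (6.34% of all promoters), the amino acid response motif TGATGNAAN (3.13%) or the antioxidant response motif TGACNNNGC (10.9%), each searched on both strands. A match is only a description of these letters.

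SLC29A2 and SLC46A1 carry nucleosides and folate. SLC29A2, a nucleoside carrier that works along the gradient, was read from B4GAT1-DT with 18.5 and 14.6 CPM in DMSO, 63.1 and 45.0 CPM after FEBJ, and 21.4 and 14.5 CPM after cynaroside. Both FEBJ libraries lay above the other 4, and the rise was 1.71 ± 0.45 on the log2 scale (adjusted p = 0.000355, edgeR test with Benjamini-Hochberg adjustment), while 10.9% of the row lies opposite the gene. SLC29A2 is among the members on a total of 226 counts, with 70 in each FEBJ library. Its higher level after FEBJ is thus partly fixed by the count limit, and its tests with FEBJ are no independent support. SLC29A2's own row, with 88 to 290 counts per library, was not called after FEBJ (-0.08 ± 0.22) and was higher after cynaroside (0.88 ± 0.21).

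SLC46A1, which takes up folate together with protons, gave 32.1 and 41.2 CPM in DMSO, 37.0 and 22.5 CPM after FEBJ, and 74.1 and 65.3 CPM after cynaroside. The cynaroside libraries were the highest. SLC46A1 rose after cynaroside (0.90 ± 0.34, adjusted p = 0.0243) and was not called after FEBJ (-0.34 ± 0.36, adjusted p = 0.409), in the edgeR test with Benjamini-Hochberg adjustment. The rise lost its call without DMSO 1 (0.75, adjusted p = 0.159), cynaroside 1 (0.84, 0.0709) or cynaroside 2 (1.00, 0.0579), and with DESeq2 (0.94, 0.0784). FEBJ lay below cynaroside by 1.24 ± 0.35 (adjusted p = 0.000691). The own row of SLC46A1, opposite exons of SARM1, held 817 to 3149 counts per library and was higher after FEBJ (0.81 ± 0.08) and after cynaroside (0.29 ± 0.08).

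SLCO3A1 and SLCO4A1 are organic anion carriers, known for taking up prostaglandins and thyroid hormones. SLCO4A1, read from SLCO4A1-AS1 over coding sequence, gave 64.1 and 73.2 CPM in DMSO, 151 and 184 CPM after FEBJ, and 107 and 98.2 CPM after cynaroside. The 3 groups did not overlap, with DMSO lowest and FEBJ highest. It rose after FEBJ by 1.28 ± 0.22 (adjusted p = 1.02e-08) and after cynaroside by 0.56 ± 0.23 (adjusted p = 0.0389), in the edgeR test with Benjamini-Hochberg adjustment. The rise after cynaroside did not pass without DMSO 1 (0.49, adjusted p = 0.175), DMSO 2 (0.67, 0.0640), cynaroside 1 (0.53, 0.0866) or cynaroside 2 (0.63, 0.0799), with DESeq2 (0.59, 0.0939) or with only the 4 libraries compared (0.56, 0.0507). SLCO3A1 gave 65.1 and 49.2 CPM in DMSO, 149 and 97.6 CPM after FEBJ, and 61.3 and 71.1 CPM after cynaroside. It rose after FEBJ by 1.11 ± 0.25 (adjusted p = 2.06e-05) and was not called after cynaroside (0.25 ± 0.26, 95% interval -0.26 to 0.77), by the same test, but was called at 0.72 (adjusted p = 0.0179) with the scaling of all deposited gene rows. Their own rows held too few counts to test, at most 14 in any library.

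Against cynaroside, FEBJ was higher for SLCO3A1 (0.86 ± 0.25), SLCO4A1 (0.72 ± 0.21) and SLC29A2 (1.65 ± 0.46), and lower for SLC24A3 (-2.30 ± 0.55), SLC35E1 (-1.53 ± 0.14), SLC38A10 (-1.50 ± 0.09), SLC30A5 (-0.65 ± 0.09) and SLC7A6 (-0.51 ± 0.18). The direction of SLC29A2 is partly fixed by the count limit, as said above. SLCO3A1 lost this call without FEBJ 1 (0.49, adjusted p = 0.174 in the edgeR test with Benjamini-Hochberg adjustment) and SLCO4A1 without FEBJ 2 (0.51, 0.0898). SLC7A6 lost it without FEBJ 1 (-0.34, 0.177), without cynaroside 2 (-0.41, 0.135) and with DESeq2 (-0.49, 0.0674). SLC24A3 was at -1.67 without FEBJ 1 and -4.21 without FEBJ 2. SLC4A2 was not called between the treatments (-0.08 ± 0.05, adjusted p = 0.125), but was called lower after FEBJ under 10 alternatives, at -0.11 to -0.27, among them leaving out DMSO 1, DMSO 2, FEBJ 1 or cynaroside 1.

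The own rows give a second reading of the carriers that the choice of members did not use. Own rows of 12 carriers were tested among 12012 deposited rows, of which 50.8% were called after FEBJ (26.0% higher, 24.8% lower), 45.4% after cynaroside (24.3 and 21.1%) and 41.9% between the treatments (21.5 and 20.4%). After FEBJ 6 own rows of carriers were higher and 1 lower. Among carriers called in both readings SLC35E1 moved the same way and SLC30A5 and SLC7A6 opposite ways. The own row of SLC35E1 passed the filter on low counts only through its DMSO libraries, so its shared call is no independent support. After cynaroside 5 were higher and 1 lower, with SLC46A1 called the same way in both readings and SLC4A2 in opposite ways. Between FEBJ and cynaroside, SLC24A1 and SLC38A10 were called the same way in both readings, and SLC29A2, SLC46A1, SLC7A11 and SLC7A6 in opposite ways. For 10 of the 17 carriers the own row held under 20% of the counts of the opposite rows, from 2.09% for SLCO4A1 to 16.8% for SLC38A10. For SLC46A1, SLC7A6, SLC29A2 and SLC24A1 it held 266 to 3372% of those counts. The own rows of SLC7A6, SLC46A1, SLC4A2 and SLC24A1 lie opposite exons of SLC7A6OS, SARM1, CDK5 and DENND4A. Reads of the carrier and of that other gene cannot be told apart in them. The same or opposite calls are therefore a description of the rows, and which reading stands for the carrier's mRNA was not tested.

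**Figure D5:**
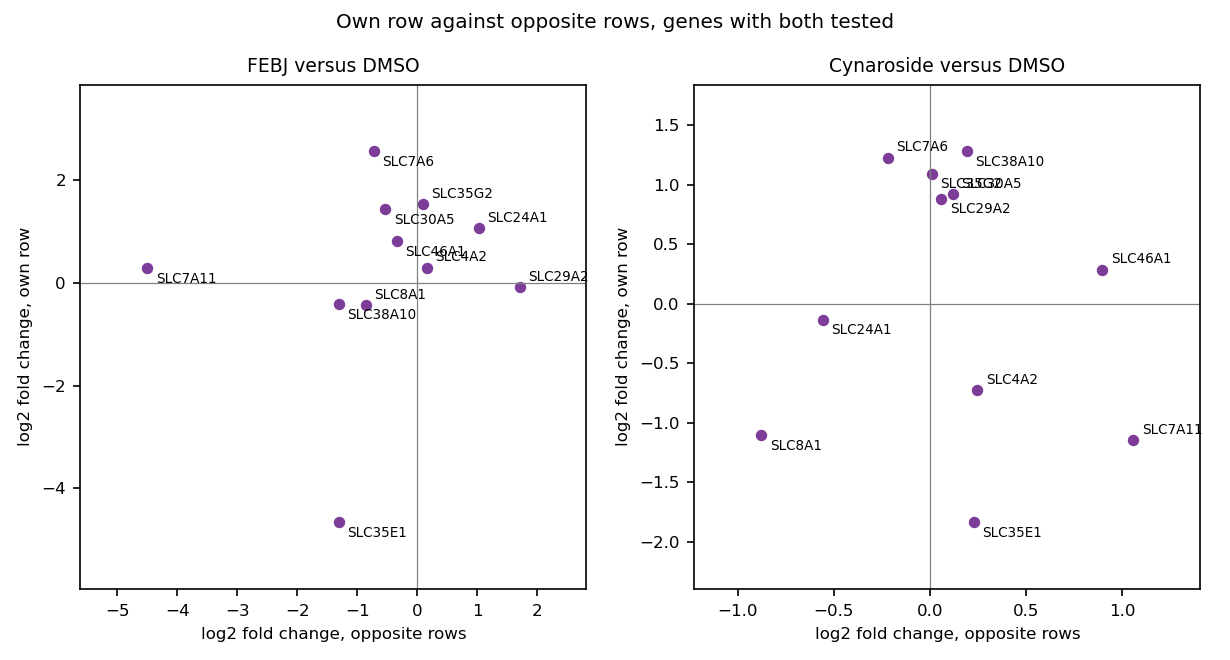
Log2 fold change of the own row (vertical) against that of the opposite rows (horizontal) for 11 carriers with both tested, after FEBJ (left) and after cynaroside (right), each against DMSO. SLC7A6 and SLC7A11 lie away from the diagonal in the left panel. SLC35E1, whose own row passed the filter on low counts only through its DMSO libraries, is low in both readings there.

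Other transport genes were read the same way. Of 62 ATPase pumps and flippases 10 could be tested, and after FEBJ 1 rose and 5 fell, with a median log2 fold change of -0.68. These 6 calls of 10 stand beside 66.8% of all tested genes. ATP8B1, a phospholipid flippase, fell from 952 ± 17.4 to 130 ± 2.16 CPM after FEBJ (SD, n = 2; -2.87 ± 0.12) and to 391 ± 93.1 CPM after cynaroside (-1.24 ± 0.10). ATP6V0A2, a subunit of the proton pump of acidic organelles, rose after FEBJ (1.01 ± 0.18). After cynaroside, where 38.4% of all genes were called, 2 pumps rose and 1 fell, the calcium pump ATP2A1 by 1.60 ± 0.33 and the lysosomal ATP13A2 by 0.44 ± 0.15, with a median over the 10 of 0.11. Of 46 ABC transporters 1 was tested, ABCB8, which was not called. Of 20 partners and regulators of carriers 3 were tested. BSG, the chaperone of lactate carriers, rose after FEBJ from 5.24 ± 0.83 to 28.4 ± 0.68 CPM (2.44 ± 0.71). BSG passed the filter on low counts only through its FEBJ libraries, so its rise is partly fixed by that filter. HIF1A, a transcription factor of the response to low oxygen, fell after FEBJ (-0.85 ± 0.10). HIF1A (-1.02 ± 0.10) and NEDD4L, a ubiquitin ligase of membrane carriers (-0.78 ± 0.21), fell after cynaroside.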

How the data were processed

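RNA of 6 LX-2 libraries was sequenced. Per the submitters' processing notes, CASAVA 1.7, HISAT2, HTSeq 0.12.4 and DESeq2 1.38.0 were used with hg19, and the authors deposited raw counts per Ensembl gene for each library. The strand setting and the annotation release are not given in the sources used here. Each table held 62754 gene rows and 5 summary rows, which took 93.9 to 94.5% of all counts and were left out. Symbols were joined by Ensembl identifier (62700 rows). Exon overlaps were taken from the GENCODE annotation, release 29 (GRCh38), which lists 58261 of the rows.

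The opposite-strand reading summed 2640 non-coding rows into 2379 genes. Pseudogenes and immunoglobulin and T cell receptor genes were not read. The table was tested with edgeR 4.0.16 in R 4.3.3: filterByExpr kept 1761 genes, and TMM scaling was used. Then 3 group means were fitted to all 6 libraries, with quasi-likelihood tests and p-values adjusted per comparison after Benjamini-Hochberg. The tests were tried on simulated data, where 1509 of 1702 genes were unchanged for FEBJ against DMSO. In the real data 66.8% of genes were called there, so the simulation cannot show how the tests behave on them. Calls of risen or fallen use an adjusted p of 0.05 or less. Levels are CPM with the SD of 2 libraries, and log2 fold changes have the standard error.

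The members and gene lists were chosen with earlier results of these data known. Other genes were named as the smallest p of a list, up to 2 in each direction. The pseudogene and 50% alternatives were chosen after the data were seen.
Other alternatives were RLE, upper-quartile and all-row scaling, other filters on low counts, DESeq2 1.42.0, a replicate block, each library left out, an overlap of 200 bp, and the own rows as deposited. In the totals, 1 carrier and 1 pump are counted that are not reported here, and the figures leave them out.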

Additional observations from a re-analysis of the deposited data

How the results depend on the processing

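With rows at least 50% opposite the gene, 8 carriers were left, and 2 rose and 4 fell after FEBJ, 2 rose and 0 fell after cynaroside, and 2 were higher and 6 lower after FEBJ than after cynaroside. With rows holding at least the counts of the own row, 12 were left, and 3 were higher and 5 lower after FEBJ than after cynaroside. Both alternatives tested fewer carriers by construction. The scaling of all deposited gene rows gave 9 risen and 0 fallen after cynaroside, with 814 of all 1761 genes higher and 120 lower in place of 320 and 356. DESeq2 gave 2 risen and 2 fallen, with 251 and 261 of all genes. In the own rows as deposited, 1 carrier was lower after FEBJ, 1 after cynaroside and 2 after FEBJ against cynaroside. Leaving out each library in turn gave 3 to 5 risen and 8 to 9 fallen after FEBJ, 2 to 5 risen and 1 to 2 fallen after cynaroside, and 2 to 5 higher and 7 to 9 lower after FEBJ than after cynaroside. A library left out leaves 1 in its group, assumed to vary like the others. The cause of these changes was not tested.

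Own rows gave the other sign after FEBJ for SLC29A2 (-0.078), SLC30A5 (1.43), SLC46A1 (0.81), SLC7A11 (0.29) and SLC7A6 (2.56). After cynaroside they did so for SLC4A2 (-0.72), SLC7A11 (-1.15) and SLC7A6 (1.23). They also did so there for SLC35E1 (-1.83 against 0.23), which was called in neither reading. Between FEBJ and cynaroside they did so for SLC29A2 (-0.96), SLC30A5 (0.51), SLC46A1 (0.53), SLC4A2 (1.02), SLC7A11 (1.43) and SLC7A6 (1.33). Of these, both readings were called only for SLC30A5 and SLC7A6 after FEBJ, SLC4A2 after cynaroside, and SLC29A2, SLC46A1, SLC7A11 and SLC7A6 between the treatments. The other signs involve a value that was not called. Outside the own rows, SLC30A4 with the pseudogene row (-0.53) was the only reversal among values called in either fit. Values called in neither fit took the other sign in 24 instances, 1 of them in the own rows, that of SLC35E1 after cynaroside.

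With a replicate block, the counts were 4 risen and 9 fallen after FEBJ, 4 and 2 after cynaroside, and 5 and 8 between them, and no call of a carrier changed. Same-numbered libraries did not deviate together (correlations of -0.00, -0.08 and 0.01). This shows no strong shared deviation, but with 2 libraries a group it cannot tell whether same-numbered libraries were prepared together. Depth limits the rarest carriers most, such as SLC30A4 with 3 counts in cynaroside 1.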
